A study of Homo sapiens with 18 samples.

Results

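The 6 genes followed here encode the kinase that THZ1 was made to inhibit, the partner proteins of that kinase, and the further kinases that THZ1 binds with their shared cyclin. CDK7, CCNH and MNAT1 make up the CDK-activating kinase of the transcription factor TFIIH, and CDK12, CDK13 and CCNK make up the cyclin K kinases. They were taken by name from a table of 17026 human genes, and all 6 were in it. RNA was measured in 18 cultures of the human pancreatic ductal adenocarcinoma lines BxPC-3, MiaPaCa-2 and PANC-1, which carry no engineered change according to the labels. Each line received 100 nM THZ1 or the solvent DMSO for 6 h, with 3 biological replicates in each of the 6 groups. All lines grew in 1 serum-containing medium with β-glycerophosphate and ascorbic acid, and each is a single line of tumour cells without the other cells of a tumour. Polyadenylated RNA was sequenced, and RNA controls of the ERCC set had been added to the extracted RNA.

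CDK7 with cyclin H (CCNH) and the assembly factor MAT1 (MNAT1) phosphorylates the tail of RNA polymerase II as transcription starts, and it also activates the kinases that drive the cell cycle. CDK12 and CDK13 each bind cyclin K (CCNK) and phosphorylate the same tail while the polymerase elongates, and CDK12 is known for keeping long DNA repair genes fully transcribed. THZ1 binds CDK7 covalently and also reaches CDK12 and CDK13. The measurements below are of the messenger RNAs of these proteins, not of kinase activity or protein.

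All levels are the authors' values multiplied by a single constant, so that the average library sums to 1000000, and are called units here. Log2 differences were taken on the value plus 1, and a gene was called when its limma p adjusted over 15354 tested genes was under 0.05. Libraries held 6352482 to 20910423 recovered reads. The shallowest, DMSO replicate 1 of PANC-1, also lay furthest from its group, with a log2 residual SD over all genes of 0.52, where the remaining 17 had 0.10 to 0.31, and values without it are given where it mattered. The median gene changed with THZ1 by 0.25 in BxPC-3, 0.19 in MiaPaCa-2 and -0.07 in PANC-1 on the log2 scale of the deposited values, and by -0.64, -0.85 and -0.31 once libraries were set to equal sums of ERCC reads. Called responses of the 6 genes are therefore also given as percentiles among all tested genes of that line, which reads them against the median gene. Those not repeated below were 65.5 for MNAT1 and 24.3 for CDK12 in BxPC-3. In MiaPaCa-2 they were 59.1 for CCNH, 71.9 for MNAT1 and 73.7 for CCNK. The BxPC-3 label was checked on SMAD4, known to be lost in that line, which stood at 0.145 units in BxPC-3 with DMSO against 61.5 in MiaPaCa-2 and 20.3 in PANC-1. This check cannot tell MiaPaCa-2 from PANC-1, and CDKN2A, also planned as a line check, had no row. Of 6 epithelial markers 5 had a row and summed to 1707 to 8808 units, but the epithelial adhesion gene CDH1 was near 0 in MiaPaCa-2, at 0.179 units with DMSO, against 298 in BxPC-3 and 3.31 in PANC-1. Of the 3 leukocyte and 2 acinar markers none had a row in the table. The fibroblast markers COL1A1 and COL1A2 summed to 9.48 to 95.6 units and the endothelial marker VWF was at 0.204 to 6.79 units, while DCN, LUM and PECAM1 had no row.

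In BxPC-3, 5 of the 6 messengers changed with THZ1. Those of the partners CCNH, MNAT1 and CCNK rose and those of the kinases CDK7 and CDK12 fell, where 59% of all tested genes were called, 40% higher and 18.9% lower. In MiaPaCa-2 the same 3 partners rose and CDK12 fell, 4 of 6 called where 56.3% of all genes were, 36.5% higher and 19.8% lower. In PANC-1 none of the 6 passed limma, where 0.501% of all genes did, 0.274% higher and 0.228% lower. There 2 of the 6, CCNH and MNAT1, had an unadjusted limma p under 0.05, a share not computed over all genes. On recovered reads DESeq2 called 1 of the 6, where it called 544 of 17026 genes. EdgeR called 0 of the 6 and 18 of 16150 genes. Over 6 genes the counts of called genes lie close to what the backgrounds give and are not a result about the members. Responses are described gene by gene below, and partners and kinases did not divide cleanly. The kinase CDK13 had a log2 change of 0.29 in BxPC-3 and CDK7 one of 0.02 in MiaPaCa-2, neither called. The median response of the 6 was 0.41 in BxPC-3, 0.18 in MiaPaCa-2 and 0.17 in PANC-1 on the log2 scale. On the ERCC scale all 6 were called lower in both BxPC-3 and MiaPaCa-2 and none in PANC-1. Of all genes 59.1%, 73.9% and 18.4% were called lower there. The rises below are therefore rises on the deposited scale, where the median gene of BxPC-3 and MiaPaCa-2 rose too. With equal library sums the rises of CCNH, MNAT1 and CCNK in these lines were not called. The ERCC controls were added to extracted RNA, so the ERCC scale cannot be read as RNA per cell or per culture.

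**Figure D1:**
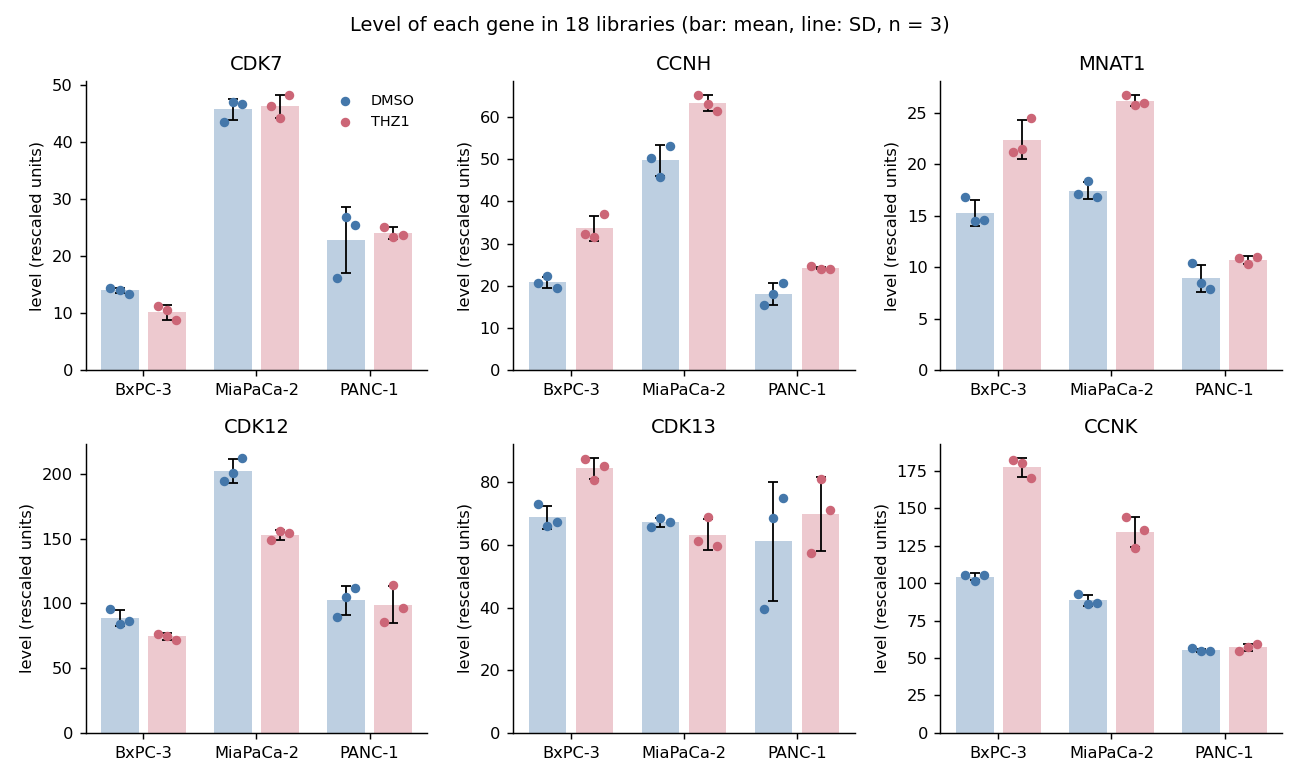
Level of each of the 6 genes in units (linear axis from 0) in every library, by line and treatment. Points are libraries, bars the group means and lines the SD of 3 libraries. CCNK with THZ1 lies at 170.3 to 182 units in BxPC-3, above its DMSO libraries at 102 to 106, while in PANC-1 the groups overlap.

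On the deposited scale CDK7, the catalytic subunit and the drug's primary target, fell in BxPC-3 and was not called in the other lines. In BxPC-3 it was at 14.4, 14.1 and 13.4 units with DMSO and at 11.2, 10.5 and 8.72 units with THZ1. All THZ1 libraries lay below all DMSO libraries. CDK7 fell by 0.43 on the log2 scale (SE 0.14, limma adjusted p = 0.0155), at percentile 18.1 among all genes of the line. This call rested on few reads, 108 to 144 with THZ1, and without THZ1 replicate 3 of BxPC-3 the log2 change was -0.33 with a limma adjusted p of 0.0808. In MiaPaCa-2, where CDK7 was highest, its level was 43.5, 46.9 and 46.6 units with DMSO and 46.3, 44.1 and 48.2 units with THZ1. The groups overlapped, and the log2 change of 0.02 (SE 0.14) was not called, with a limma adjusted p of 0.937. CDK7 was, however, called lower in MiaPaCa-2 with equal library sums (-0.62, limma adjusted p = 0.0119) and equal ERCC sums (-1.25, limma adjusted p = 4.42e-05). It was not called there with TMM (-0.22, limma adjusted p = 0.381). In BxPC-3 it was called lower with each of these scalings (-1.10, -1.50 and -0.79). In PANC-1 the level was 16.1, 26.9 and 25.4 units with DMSO and 25.2, 23.4 and 23.6 units with THZ1. DMSO replicate 1 was the low library, and the log2 change of 0.11 became -0.12 without it, uncalled in both fits (limma adjusted p of 0.643 and 0.507).

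The response of CDK7 was 0.54 higher in PANC-1 than in BxPC-3 on the log2 scale (SE 0.20, limma adjusted p = 0.0405), a kind of call that 42.7% of all genes received. It was 0.99 with TMM (limma adjusted p = 0.0124) and 1.33 with equal ERCC sums (limma adjusted p = 0.00261). Over all 3 lines together the F-test of the difference missed the threshold, with a limma adjusted p of 0.0669, where 50.6% of genes passed, and the pairwise call was lost when any of 12 of the 18 libraries was left out, the highest limma adjusted p being 0.108 without THZ1 replicate 3 of BxPC-3. Without DMSO replicate 1 of PANC-1 the difference was 0.32, with a limma adjusted p of 0.0311. Between MiaPaCa-2 and BxPC-3 the difference of 0.45 was not called (limma adjusted p = 0.166, 0.00414 without DMSO replicate 1 of PANC-1), where 13.8% of genes were, 6.14% positive and 7.66% negative.

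CCNH encodes cyclin H, which CDK7 must bind to be active. In BxPC-3 CCNH was at 20.6, 22.3 and 19.5 units with DMSO and at 32.2, 31.7 and 37.0 units with THZ1. The groups did not overlap, and CCNH rose by 0.67 on the log2 scale (SE 0.10, limma adjusted p = 2.9e-05), at percentile 73.5, against -0.48 with equal ERCC sums and -0.038 with equal library sums. In MiaPaCa-2 its level was 50.3, 45.8 and 53.1 units with DMSO and 65.2, 63.0 and 61.5 units with THZ1. Here too the THZ1 libraries were the high ones, with a rise of 0.34 (SE 0.10, limma adjusted p = 0.00835) that turned to -0.93 and -0.30 on those scales. In PANC-1 the level was 15.5, 18.1 and 20.7 units with DMSO and 24.6, 24.1 and 24.0 units with THZ1. No library overlapped between the groups, and the log2 change of 0.41 stood at percentile 95.0 of that line, but it missed the threshold with a limma adjusted p of 0.0706. It was called without any 1 of the 3 DMSO libraries of PANC-1, with limma adjusted p of 0.0328, 0.0487 and 0.0222 for replicates 1, 2 and 3. Those fits called 1045, 855 and 3334 of the 15354 tested genes in PANC-1, against 77 in the main test. A fit on the compared groups alone called 0. On the deposited scale CCNH had the highest response of the 6 genes within PANC-1, but without DMSO replicate 1 MNAT1 had 0.36 and CCNH 0.31. On TMM scaling the rise of CCNH was called in neither BxPC-3 nor MiaPaCa-2, with log2 changes of 0.29 and 0.11.

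MNAT1 encodes MAT1, which holds CDK7 and cyclin H together and anchors them to TFIIH. In BxPC-3 it was at 16.8, 14.5 and 14.6 units with DMSO and at 21.2, 21.5 and 24.5 units with THZ1, and rose by 0.52 on the log2 scale (SE 0.10, limma adjusted p = 0.00039), against -0.60 with equal ERCC sums and -0.17 with equal library sums. In MiaPaCa-2 it was at 17.1, 18.4 and 16.9 units with DMSO and at 26.7, 25.7 and 26.0 units with THZ1, and rose by 0.56 (SE 0.10, limma adjusted p = 0.000239), against -0.68 and -0.062. In neither line did the groups overlap. In PANC-1, where MNAT1 was lowest, it was at 10.4, 8.48 and 7.86 units with DMSO and at 10.9, 10.3 and 11.04 units with THZ1. The groups overlapped through DMSO replicate 1, which gave 66 reads, and the log2 change of 0.25 was not called (limma adjusted p = 0.187). Without that library it was 0.36 with a limma adjusted p of 0.0255. That fit called 6.81% of all genes in PANC-1, against 0.501% in the main test. On TMM scaling the change in BxPC-3 was 0.16 and not called, with a limma adjusted p of 0.157.

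CDK12 is the kinase known for its hold on DNA repair genes. In BxPC-3 and MiaPaCa-2 it moved against its cyclin on the deposited scale and with TMM factors. With equal ERCC sums both were called lower in these lines (CCNK at -0.42 and -0.69), and with equal library sums CCNK was not called. In MiaPaCa-2, where CDK12 was highest, it was at 194, 200.5 and 213 units with DMSO and at 149, 156 and 154 units with THZ1. The groups were well apart, and CDK12 fell by 0.40 on the log2 scale (SE 0.10, limma adjusted p = 0.00281), at percentile 20.2. In BxPC-3 it was at 95.9, 84.1 and 86.2 units with DMSO and at 76.4, 75.0 and 71.8 units with THZ1. The groups did not overlap, and CDK12 fell by 0.25 (SE 0.10, limma adjusted p = 0.0428). That call lay close to the threshold and was lost when any of 12 of the 18 libraries was left out, with limma adjusted p of 0.0507 to 0.164 and the highest without DMSO replicate 1 of BxPC-3. With equal ERCC sums, equal library sums and TMM factors CDK12 was called lower in both lines, with log2 changes of -1.42, -0.97 and -0.63 in BxPC-3 and -1.69, -1.05 and -0.64 in MiaPaCa-2. In PANC-1 it was at 89.7, 105 and 112 units with DMSO and at 85.9, 114 and 96.8 units with THZ1. These overlapped, with a log2 change of -0.05 and a limma adjusted p of 0.761.

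CDK13, the close relative of CDK12, passed limma in no line on the deposited scale or with TMM. With equal library sums it was called lower in MiaPaCa-2 (log2 change -0.73, limma adjusted p = 0.0129). With equal ERCC sums it was called lower in MiaPaCa-2 (-1.36, limma adjusted p = 0.000162) and BxPC-3 (-0.88, limma adjusted p = 0.00796). The values that follow are on the deposited scale. In BxPC-3 it was at 73.1, 66.1 and 67.4 units with DMSO and at 87.4, 80.7 and 85.3 units with THZ1. These groups did not overlap, but the log2 change of 0.29 (SE 0.17) had a limma adjusted p of 0.16. The spread that entered this test was shared with PANC-1, where DMSO replicate 1 stood at 39.6 units against 68.7 and 75.1 in the other 2 DMSO libraries. Without that library the BxPC-3 change was called with a limma adjusted p of 0.00454. That fit called 73.2% of all genes in BxPC-3, against 59% in the main test. In MiaPaCa-2 the level was 65.8, 68.6 and 67.4 units with DMSO and 61.2, 68.8 and 59.8 units with THZ1, with overlap and a log2 change of -0.09. With THZ1 PANC-1 had 57.5, 81.0 and 71.3 units, and its log2 change of 0.23 became -0.05 without DMSO replicate 1.

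CCNK, whose protein serves both CDK12 and CDK13, had the lowest adjusted p of the 6 in BxPC-3 and in MiaPaCa-2. In BxPC-3 it was at 106, 102 and 106 units with DMSO and at 182, 180.1 and 170.3 units with THZ1. The THZ1 libraries were 1.69-fold higher on the scale of the value plus 1, a log2 rise of 0.76 (SE 0.07, limma adjusted p = 1.3e-07) at percentile 78.2. It was -0.42 with equal ERCC sums and 0.034 with equal library sums, where the call was lost (limma adjusted p = 0.778). In MiaPaCa-2 it was at 92.8, 86.1 and 87.0 units with DMSO and at 144, 124 and 136 units with THZ1, again without overlap, and rose by 0.59 (SE 0.07, limma adjusted p = 2.68e-06), against -0.69 with equal ERCC sums and -0.051 with equal library sums. In PANC-1 it was at 56.5, 54.9 and 54.5 units with DMSO and at 54.9, 57.3 and 59.5 units with THZ1. The spread in PANC-1 was small, yet the groups overlapped, and the log2 change was 0.05 (SE 0.07, limma adjusted p = 0.668). The lines differed by test. The response in PANC-1 was lower than in BxPC-3 by 0.71 (the log2 difference was -0.71, limma adjusted p = 4.51e-05) and than in MiaPaCa-2 (-0.54, limma adjusted p = 0.000592), where 30.8% and 27.4% of all genes were called lower. With equal ERCC sums these differences turned to 0.19 and 0.46, and with equal library sums to 0.021 and 0.11, none of them called. On TMM scaling CCNK was called higher in BxPC-3 (0.38) and MiaPaCa-2 (0.35), and the differences between lines, at -0.23 and -0.21, were not called.

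**Figure D2:**
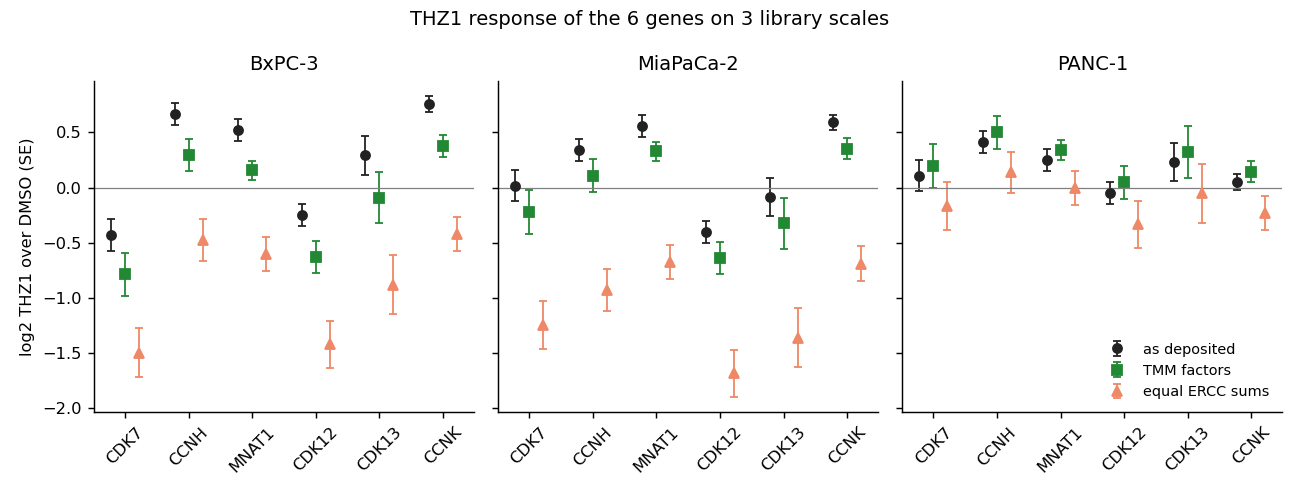
Log2 difference of THZ1 over DMSO (limma estimate, value plus 1) for each gene, 1 panel per line. Points are estimates and lines their SE. The deposited scale, TMM factors and equal ERCC sums are side by side, and CDK12 is below 0 on all 3 in BxPC-3 and MiaPaCa-2, while CCNK is at 0.76 on the deposited scale of BxPC-3 and at -0.42 with equal ERCC sums.

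In BxPC-3 all 6 genes had THZ1 libraries wholly apart from DMSO libraries, 4 above and 2 below, where 76.1% of all genes did, 51.1% above and 25% below. In MiaPaCa-2 4 of the 6 did, 3 above and 1 below, against 73.8% of all genes, 47.6% above and 26.2% below. In PANC-1 1 did, CCNH, against 17.1%, 8.34% above and 8.73% below. Between responses, limma called 2 of the 6 for PANC-1 minus BxPC-3, CDK7 higher and CCNK lower, against 42.7% of all genes, 11.9% positive and 30.8% negative. For PANC-1 minus MiaPaCa-2 it called 1, CCNK, against 38.9%, 11.6% positive and 27.4% negative. For MiaPaCa-2 minus BxPC-3 limma called 0 of 6, against 13.8% of all genes. Here 2 genes, CDK7 and CCNH, had an unadjusted limma p under 0.05, a share not computed over all genes. On recovered reads edgeR and DESeq2 also called 0 of 6, against 1882 of 16150 and 2223 of 17026 genes. Without DMSO replicate 1 of PANC-1 limma called 4, 1 and 3 of the 6 for these differences, in the order given. The shares of all genes also rose, to 56.1%, 52.8% and 35.3%. The further genes were CCNH and CDK13 against BxPC-3 in both other lines, and CDK7 in MiaPaCa-2. The response difference of CDK12, uncalled on the deposited scale, was called with TMM at 0.68 for PANC-1 minus BxPC-3 (limma adjusted p = 0.0206) and at 0.69 for PANC-1 minus MiaPaCa-2 (limma adjusted p = 0.02), where 21.4% and 18% of all genes were called positive. The same 2 differences were called on the ERCC scale at 1.09 and 1.36, where 28.6% and 41.8% of all genes were.

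The promoters of the partners that rose in BxPC-3 and MiaPaCa-2, and that of CDK12, which fell there, are shown to let the sequences be compared. They are RefSeq promoters of GRCh38.p14, each running from 250 bases before to 30 bases after the annotated start, 5′ to 3′ on the strand of the gene. Capitals mark matches on either strand to 7 motifs: the E-box CACGTG, the ETS motif CCGGAAG, the CRE core TGACGT, the SP1 motif GGGCGG, the YY1 motif AAGATGGC, the CCAAT box CCAAT and the TATA motif TATAAA. The intervals are chr14:99481159-99481438 (plus strand) for CCNK, chr5:87412901-87413180 (minus strand) for CCNH, chr14:60734511-60734790 (plus strand) for MNAT1 and chr17:39461236-39461515 (plus strand) for CDK12.
CCNK: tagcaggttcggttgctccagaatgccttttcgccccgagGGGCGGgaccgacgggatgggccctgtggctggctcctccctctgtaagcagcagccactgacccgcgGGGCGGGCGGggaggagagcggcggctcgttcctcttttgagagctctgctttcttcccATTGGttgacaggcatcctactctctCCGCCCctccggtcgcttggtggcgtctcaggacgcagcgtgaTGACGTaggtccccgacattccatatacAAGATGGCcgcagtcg
CCNH: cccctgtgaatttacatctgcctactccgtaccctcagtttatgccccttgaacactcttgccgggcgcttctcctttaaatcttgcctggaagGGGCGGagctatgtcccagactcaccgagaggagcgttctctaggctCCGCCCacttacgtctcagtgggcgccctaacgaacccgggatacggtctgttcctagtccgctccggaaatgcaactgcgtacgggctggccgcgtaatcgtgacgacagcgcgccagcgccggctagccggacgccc
MNAT1: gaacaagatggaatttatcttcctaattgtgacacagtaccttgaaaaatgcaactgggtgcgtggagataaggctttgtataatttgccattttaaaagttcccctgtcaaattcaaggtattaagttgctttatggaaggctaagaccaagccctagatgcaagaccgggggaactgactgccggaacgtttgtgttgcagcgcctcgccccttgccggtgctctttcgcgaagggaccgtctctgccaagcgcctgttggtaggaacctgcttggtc
CDK12: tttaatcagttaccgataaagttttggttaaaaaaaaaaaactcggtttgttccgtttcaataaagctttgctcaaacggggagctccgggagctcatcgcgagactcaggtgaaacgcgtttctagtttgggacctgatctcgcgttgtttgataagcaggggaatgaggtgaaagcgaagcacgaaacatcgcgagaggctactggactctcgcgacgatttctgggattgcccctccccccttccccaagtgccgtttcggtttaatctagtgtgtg

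The CCNK promoter held 4 SP1 matches, of which some overlap each other, and 1 match each to the YY1 motif, the CRE core and the CCAAT box. CCNH held 2 SP1 matches. MNAT1 and CDK12 held no match to any of the 7, which says only that these letters are not in these windows. Among 35116 promoters of the same length 44.1% held the SP1 motif, 33.6% the CCAAT box, 7.77% the CRE core and 2.43% the YY1 motif. The shares for the ETS motif, the E-box and the TATA motif were 9.94%, 6.94% and 11.2%, and none of these was in the 4 windows. GC content was 63.6% in CCNK, 60.7% in CCNH, 48.6% in MNAT1 and 48.2% in CDK12, against a median of 58.2%. The promoters of MNAT1, which rose, and CDK12, which fell, were thus alike in GC content and in having no match. CDK7 and CDK13 each have 2 promoter entries. Both CDK7 windows held the E-box and both CDK13 windows the CRE core.

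Ratios of 2 genes within a library do not depend on how libraries are scaled, apart from the pseudocount, and they show the uneven change most directly. They compare units and not molecules, since the genes differ in length, so that only their change with THZ1 is read. The ratio of CDK12 over CCNK in BxPC-3 was 0.850 ± 0.0514 with DMSO and 0.419 ± 0.00278 with THZ1 (SD, n = 3 each), a log2 change of -1.01. In MiaPaCa-2 it went from 2.29 ± 0.179 to 1.14 ± 0.113 (SD, n = 3), a log2 change of -0.99. In both lines every THZ1 library lay below every DMSO library. In PANC-1 it was 1.85 ± 0.240 with DMSO and 1.73 ± 0.233 with THZ1 (SD, n = 3), and these overlapped (log2 change -0.10).

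CDK13 over CCNK was also lower with THZ1, by a log2 change of -0.47 in BxPC-3 and -0.68 in MiaPaCa-2, both without overlap. CDK12 over CDK13 was lower as well (-0.54 and -0.31). In the CDK-activating kinase CDK7 over CCNH was 0.674 with DMSO and 0.305 with THZ1 in BxPC-3. The same ratio was 0.923 and 0.731 in MiaPaCa-2, and 1.25 and 0.992 in PANC-1. This was the only 1 of the 7 ratios computed in which THZ1 libraries lay wholly below DMSO libraries in all 3 lines. In PANC-1 the margin was thin, with a lowest DMSO ratio of 1.04 and a highest THZ1 ratio of 1.02. The former came from DMSO replicate 1, with 102 reads of CDK7 and 98 of CCNH. The share of all gene pairs without overlap was not computed. CDK7 over MNAT1 was lower without overlap in BxPC-3 (log2 change -0.95) and MiaPaCa-2 (-0.54), while CCNH over MNAT1 had log2 changes of 0.14, -0.22 and 0.16, with no overlap in MiaPaCa-2. CDK7 over CDK12 had opposite signs in these lines, with a log2 change of -0.18 in BxPC-3 and 0.42 in MiaPaCa-2, without overlap in either. For each ratio without overlap the exact two-sided permutation p was 0.1, the smallest that 3 libraries against 3 allow, and 0.15 after Benjamini-Hochberg adjustment over 21 tests, so no ratio could pass 0.05.

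**Figure D3:**
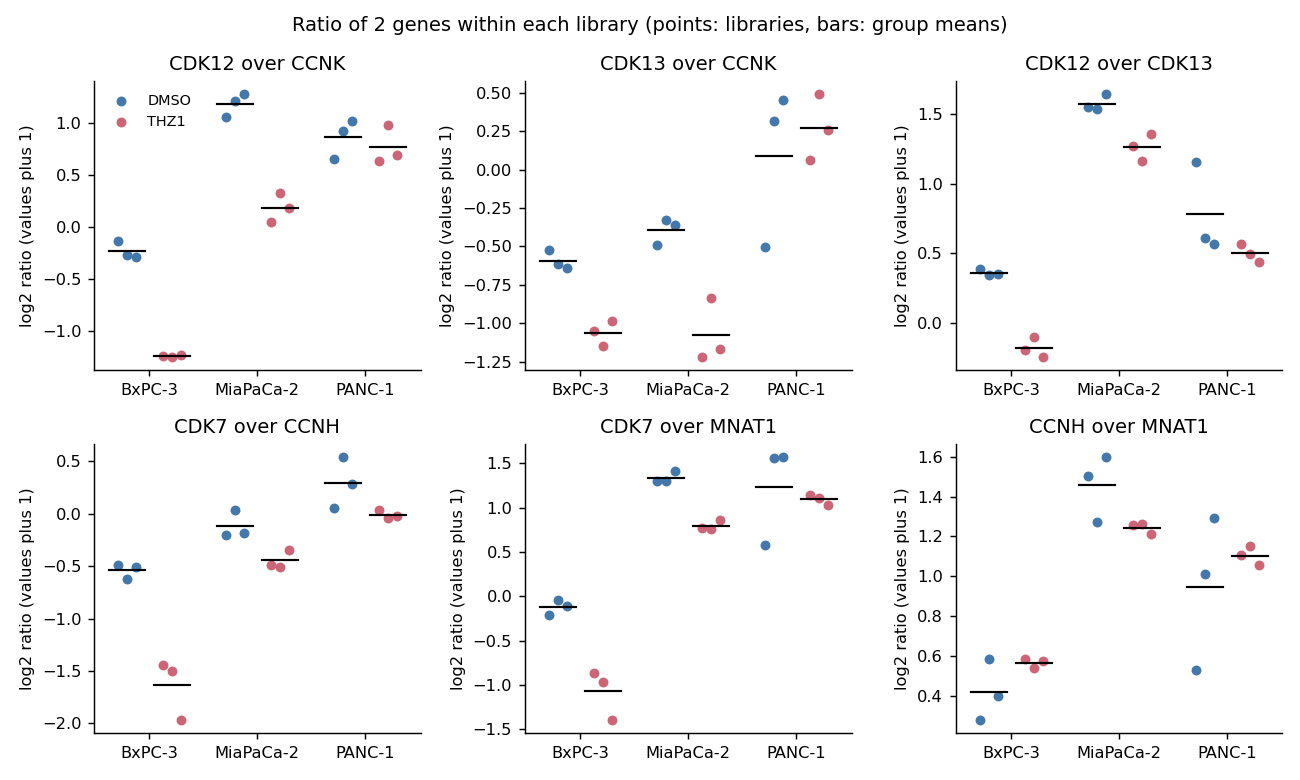
Log2 ratio of 2 genes in each library (values plus 1), by line and treatment, for 6 of the 7 ratios. Points are libraries and bars group means. CDK12 over CCNK has log2 changes of -1.01 in BxPC-3 and -0.99 in MiaPaCa-2 with no overlap, and the PANC-1 groups overlap.

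Before drug, the lines carried these genes at different levels. With DMSO CDK7 was highest in MiaPaCa-2 (45.7 ± 1.87 units, SD, n = 3), then PANC-1 (22.8 ± 5.83) and lowest in BxPC-3 (14.0 ± 0.505), and every pair was called. CCNH was at 49.7 units in MiaPaCa-2, and its 20.8 in BxPC-3 and 18.1 in PANC-1 did not pass (log2 difference of PANC-1 minus BxPC-3 -0.20, limma adjusted p = 0.104). With TMM this pair was called (-0.37, limma adjusted p = 0.0439). MNAT1 was at 17.4 units in MiaPaCa-2 and 15.3 in BxPC-3, a pair not called (log2 difference 0.18, limma adjusted p = 0.138) except with equal ERCC sums (0.55, limma adjusted p = 0.00468), and lower in PANC-1 at 8.92. CDK12 in MiaPaCa-2 (202 units) exceeded PANC-1 (102) and BxPC-3 (88.7). The latter 2 were not called apart, with a limma adjusted p of 0.0996, but were without DMSO replicate 1 of PANC-1 (0.00381). CDK13 was at 68.9, 67.3 and 61.1 units in BxPC-3, MiaPaCa-2 and PANC-1, and no pair was called (F-test limma adjusted p = 0.438, where 79.1% of genes passed). CCNK had its own order, BxPC-3 (104 units), MiaPaCa-2 (88.6) and PANC-1 (55.3), every pair called. The first of these pairs differed by a log2 of only -0.23, which became 0.14 and uncalled with equal ERCC sums. Of the 6 genes 4 were called between MiaPaCa-2 and BxPC-3, 3 between PANC-1 and BxPC-3 and 5 between PANC-1 and MiaPaCa-2, against 62.6%, 59.1% and 60.8% of all genes. Of the first 4, 3 were higher in MiaPaCa-2 and 1 lower, where 37.5% of all genes were higher and 25.1% lower. Of the 3, 1 was higher in PANC-1 and 2 lower (33.7% and 25.4% of all genes), and all of the 5 were lower in PANC-1 than in MiaPaCa-2 (28% higher and 32.8% lower over all genes).

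Per kilobase of the longest annotated coding transcript (GENCODE lengths, GRCh38), CCNK was the highest of the 6 in BxPC-3 with DMSO, at 29.6 ± 0.630 units per kb (SD, n = 3), followed by CDK12 (10.6 ± 0.755), CDK7 (9.60 ± 0.347), CCNH (8.69 ± 0.576), CDK13 (6.80 ± 0.365) and MNAT1 (5.80 ± 0.491). In MiaPaCa-2 CDK7 led with 31.4 ± 1.29, ahead of CCNK (25.2 ± 1.03), CDK12 (24.3 ± 1.12) and CCNH (20.8 ± 1.55), and CDK13 and MNAT1 shared the lowest place at 6.64 and 6.62. In PANC-1 CCNK and CDK7 were level at 15.7 units per kb, ahead of CDK12 (12.3 ± 1.37), CCNH (7.57 ± 1.09), CDK13 (6.03 ± 1.87) and MNAT1 (3.38 ± 0.507). Neighbours whose SDs overlapped were CDK12, CDK7 and CCNH in BxPC-3, CCNK and CDK12 as well as CDK13 and MNAT1 in MiaPaCa-2, and CCNK, CDK7 and CDK12 as well as CCNH and CDK13 in PANC-1. After THZ1 CCNK rose to 50.4 units per kb in BxPC-3 and CDK7 was the lowest of the 6 there, at 6.98. Which transcripts these cells use was not measured, and with merged exon lengths CCNK and CDK12 as well as CDK13 and MNAT1 in MiaPaCa-2, and CCNH and CDK13 in PANC-1, exchange places.

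**Figure D4:**
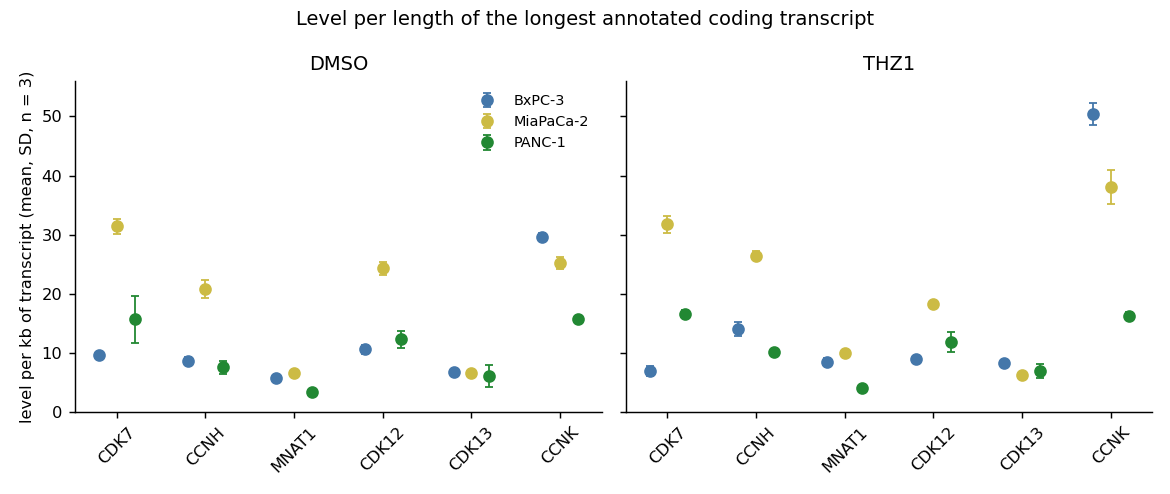
Level in units per kb of the longest annotated coding transcript, for the 6 genes in each line with DMSO (left) and THZ1 (right). Points are means and lines SDs of 3 libraries on an axis from 0. CCNK reaches 50.4 in BxPC-3 with THZ1, and CDK7 in MiaPaCa-2 stays at 31.4 and 31.7.

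Reads of neighbours could enter some of these values, since the counting is not stated to use strand. RASA1 overlaps CCNH and CCDC85C overlaps CCNK on the opposite strand, and neither was called in any line. CCDC85C had a log2 change of 0.14 in BxPC-3 where CCNK had 0.76. RASA1 was at 47.4 units with DMSO and 61.5 with THZ1 in BxPC-3 (0.37) and at 34.2 and 39.8 in PANC-1 (0.30). These gains in units are close to those of CCNH there. In MiaPaCa-2, where CCNH rose, RASA1 was at 49.4 units with DMSO and 44.8 with THZ1 (-0.14). The part of either gene in the other was not tested. CDK7 and CCNH also have annotated processed pseudogenes, CDK7P1 and CCNHP1, without a row in the table.

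The genes around these kinases were followed in 7 lists of 51 genes, of which 50 had values. In BxPC-3 22 of the 50 rose and 9 fell (over all genes 40% and 18.9%), and in MiaPaCa-2 21 rose and 10 fell (36.5% and 19.8%), counts near those backgrounds, with median log2 changes of 0.26 and 0.24 against 0.25 and 0.19 for all genes. In PANC-1 1 rose, CCNL2, the cyclin L2 of the CDK11 kinases (0.40, limma adjusted p = 0.0221), named here after its value was seen. The call was lost with DESeq2 factors, no trend, either replicate block, the compared groups alone (limma adjusted p = 0.76) and without any 1 of the THZ1 libraries of PANC-1, and with equal ERCC sums the change was 0.11, not called. On the ERCC scale 37 of the 50 were called lower and 1 higher in BxPC-3, and 44 lower and none higher in MiaPaCa-2. Of all genes 59.1% and 73.9% were called lower there. The 1 that was still higher was CDK11A. The rises counted below are therefore again rises on the deposited scale.

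The core of TFIIH, to which the CDK7 trio attaches, held called genes of both directions on the deposited scale. In BxPC-3 2 of its 6 measured genes rose, 2 fell and 2 were not called, and in MiaPaCa-2 2 rose, 3 fell and 1 was not called. On the ERCC scale 6 of 6 were called lower in both lines, and with TMM 3 were lower and 0 higher in BxPC-3 and 3 lower and 1 higher in MiaPaCa-2. With TMM 29.9% and 26.6% of all genes were called lower in these lines, and 22.4% and 24.8% higher. ERCC3, the DNA translocase that opens promoters, was at 39.2 units with DMSO and 27.9 with THZ1 in BxPC-3 (log2 change -0.48, limma adjusted p = 2.91e-05). It was at 79.4 and 58.9 units in MiaPaCa-2 (-0.43, limma adjusted p = 0.000101) and at 38.0 and 38.1 in PANC-1. GTF2H2, a structural subunit with near-identical gene copies whose reads the counting could split, fell by 0.68 and 0.56. GTF2H3 rose by 0.63 and 0.41, but on the ERCC and equal-sum scales it was lower. The calls of ERCC3 and GTF2H2 in these 2 lines held in all 34 alternatives.

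P-TEFb releases paused polymerase, and its list of 11 also holds partners and the inhibitors HEXIM1, HEXIM2 and LARP7. In BxPC-3 5 rose (among them CCNT1, CCNT2 and ELL2) and 1 fell, and in MiaPaCa-2 5 rose (among them CDK9, ELL2 and the inhibitors HEXIM1 and HEXIM2) and none fell, these genes being named after their values were seen. With equal ERCC sums none was called higher and 4 and 8 were called lower. The kinase of that complex, CDK9, was the gene that fell in BxPC-3 (log2 change -0.30, limma adjusted p = 0.0341), a call lost without any 1 of that line's 6 libraries (limma adjusted p up to 0.0931). In MiaPaCa-2 CDK9 rose by 0.47 (limma adjusted p = 0.00237), and it was lower there on the ERCC and equal-sum scales. ELL2, an elongation factor of the same list, rose by 0.88 and 0.87, and was lower on the ERCC scale (-0.30 and -0.33). The Mediator kinases CDK8 and CDK19 passed in no line on the deposited scale, and both were called lower in BxPC-3 and MiaPaCa-2 with equal ERCC sums (-1.21 and -1.20 in BxPC-3). In that list 2 of 7 rose in BxPC-3, and in MiaPaCa-2 3 rose and 1 fell. MED13L, a large subunit of the module, rose in BxPC-3 by 1.08 (-0.09 with equal ERCC sums), while MED13 fell in MiaPaCa-2 with a log2 change of -0.78 (limma adjusted p = 0.018), a call lost without DMSO replicate 2 or 3 or THZ1 replicate 1 of that line.

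Of the CDK10 and CDK11 kinases with their cyclins, 5 of 6 rose in BxPC-3 and 4 in MiaPaCa-2 on the deposited scale, where 40% and 36.5% of all genes did. The ERCC scale gave 1 called higher and 4 lower in BxPC-3, and 0 and 5 in MiaPaCa-2. The largest mean response was that of CDK11A, a splicing-linked kinase whose reads cannot be cleanly told from those of its near-identical copy CDK11B. In BxPC-3 it was at 1.10 units with DMSO and 5.45 with THZ1. The cell cycle kinases, which CDK7 activates, had 3 of 4 higher in BxPC-3 and 2 in MiaPaCa-2. CDK4 rose by 0.67 and 0.89, against -0.51 and -0.39 with equal ERCC sums, and CDK1 had log2 changes of 0.12 and 0.01 that were not called. Of 6 phosphatases of the polymerase tail 2 rose and 2 fell in each of these lines. CTDP1, the phosphatase that resets the polymerase tail, fell with log2 changes of -0.43 (limma adjusted p = 0.00104) and -0.81 (limma adjusted p = 2.48e-06).

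Of the genes known to need CDK12, 3 of 10 rose and 4 fell in both BxPC-3 and MiaPaCa-2 on the deposited scale, with medians of 0.02 and -0.12, below the 0.25 and 0.19 of all genes, and none was called in PANC-1. With TMM 4 were called lower and 0 higher in each of these 2 lines, where 29.9% and 26.6% of all genes were called lower. With equal ERCC sums all 10 were called lower, where 59.1% and 73.9% of all genes were. BRCA2, a homologous recombination gene, was at 32.7 ± 5.68 units with DMSO and 10.6 ± 0.398 with THZ1 in BxPC-3 (SD, n = 3). In MiaPaCa-2 it was at 41.8 ± 3.72 and 15.5 ± 3.83 units (SD, n = 3). Its log2 changes were -1.53 (limma adjusted p = 7.08e-06) and -1.40 (limma adjusted p = 2.01e-05), larger in size than the fall of CDK12 itself in those lines, a comparison that was not tested. In PANC-1 BRCA2 was at 27.8 ± 7.10 and 23.7 ± 6.07 units (SD, n = 3), with a log2 change of -0.23 and a limma adjusted p of 0.479. FANCI, the list's highest mean response, had 0.33 in BxPC-3 with a limma adjusted p of 0.0491, and this call was lost in 22 of 34 alternatives, with -0.85 on equal ERCC sums. The calls of BRCA2 and CTDP1 in BxPC-3 and MiaPaCa-2 held in all 34.

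**Figure D5:**
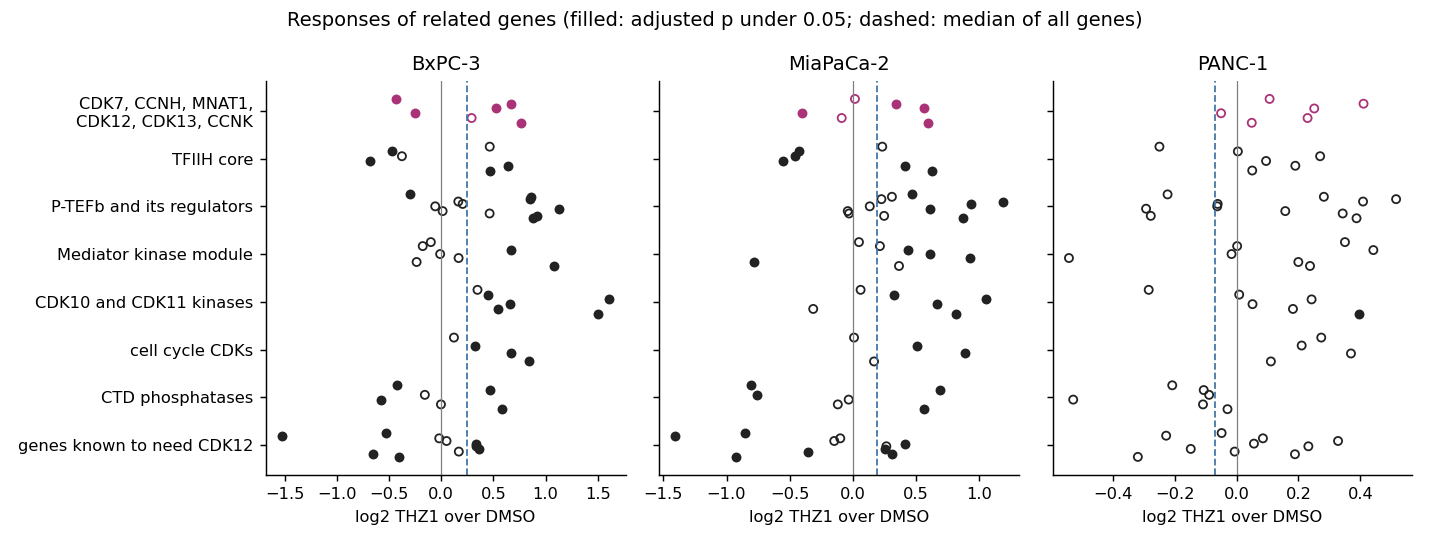
Log2 change with THZ1 over DMSO on the deposited scale for the 6 genes and for each gene of the 7 related lists, 1 panel per line with its own axis range. Filled points passed limma at an adjusted p under 0.05, and the dashed line is the median of all genes (0.25, 0.19 and -0.07). The lowest point in BxPC-3 and in MiaPaCa-2 is BRCA2, at -1.53 and -1.40.

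By likeness of pattern, measured as Pearson's r over the 18 libraries among genes with a mean of at least 20 units, none of CDK7, CCNH, CDK12, CDK13 and CCNK was among the 3 genes nearest to another member. MNAT1, with a mean under that limit, could not be. The nearest to CDK7 were WDR35, ANGEL2 and PHF17 (r of 0.99, 0.99 and 0.98), and to CCNH RBBP7, CTSC and ADAR (0.98 each). Nearest to MNAT1 were FTSJ1, RPS6 and GRN (0.98 each), and to CDK12 ZNF37BP, AGGF1 and BRWD1 (0.99, 0.98 and 0.98). For CDK13 they were TRPM7, ZSWIM6 and EHBP1 (0.95, 0.95 and 0.92), and for CCNK they included CHD4 and ERP44 (0.99 each). CHD4, a chromatin remodeller, was at 426 units with DMSO and 696 with THZ1 in BxPC-3, at 315 and 552 in MiaPaCa-2, and at 203 and 215 in PANC-1. BRWD1 was at 28.3 and 18.7, 106 and 54.7, and 34.1 and 36.0 units in the same order. These values are descriptions, since the 18 points share lines, treatment and scale. Of the 18 genes 10 were again among the nearest on TMM scaling and 5 with equal ERCC sums.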

How the data were processed

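The authors deposited 1 table with a signal for each gene in each of 18 libraries. Per the submitters' processing notes, reads were aligned with STAR to hg19. The counting program, its annotation, its use of strand, any filter and the divisor were not given in the sources used here. Per the labels, libraries came from a stranded kit for polyadenylated RNA.

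Each deposited signal times 1 whole number per library gave whole reads for 100% of values (largest deviation 0.000112, tolerance 0.001). The design had foreseen counts or another normalised unit, so the test for normalised values was used. Values were multiplied by 17.6795, and 1 unit stands for 6.34 to 24.7 reads. Columns of log2 mean change, log2 level and their SD, deposited by the authors over all lines, were not used.

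The main test, limma-trend from limma 3.58.1 under R 4.3.3, took log2 of each value plus 1 for genes at 1 or more in at least 3 libraries, with 6 group means in 1 fit, Benjamini-Hochberg adjustment and a threshold of 0.05. The labels call the replicates biological and say no more, so a p-value here speaks only of the spread among these cultures. Ratios within a library were compared with exact two-sided permutation tests. The fit was tested on simulated data. Alternatives were ERCC, equal-sum, equal-median, TMM and DESeq2 scaling, pseudocounts of 0.1 and 5, no filter and a filter of 5, no trend, sample weights, replicate blocks, fits on the compared groups alone, count tests on the reads with edgeR 4.0.16 and DESeq2 1.42.0, and fits without 1 library at a time.

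The 6 genes and the lists were chosen with earlier results of these data known. Named beside the 6 were the 3 genes nearest in pattern to each (mean at least 20 units), the highest and lowest mean response of each list, and CDK9, CDK8, CDK19, ERCC2 and ERCC3, except 1 gene that is not reported here. ERCC2 had log2 changes of 0.46, 0.23 and -0.25 in BxPC-3, MiaPaCa-2 and PANC-1, none called. CDK10 had 0.35, 0.06 and -0.28, none called, and CTDSPL 0.58, 0.56 and -0.03, the first 2 called (-0.59 and -0.69 with equal ERCC sums). Promoters came from RefSeq, and all 6 genes matched by symbol. Gene lengths came from GENCODE on GRCh38, a build other than the authors', and were matched by symbol.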

Additional observations from a re-analysis of the deposited data

Results flagged for a closer look

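On the deposited scale the THZ1 response of 2 of the 6 genes differed between lines by limma's pairwise test of the difference. For CCNK the log2 difference of PANC-1 minus BxPC-3 was -0.71 and that of PANC-1 minus MiaPaCa-2 was -0.54, because CCNK rose in BxPC-3 and MiaPaCa-2 and changed by 0.05 in PANC-1. For CDK7 the difference of PANC-1 minus BxPC-3 was 0.54, since CDK7 was lower with THZ1 in BxPC-3 and changed by 0.11 in PANC-1. Neither CCNK difference was called with TMM (limma adjusted p = 0.219 and 0.269) or with equal ERCC sums, where both turned positive. The CDK7 difference was called on both of these scales, but on the deposited scale the F-test over the 3 lines missed the threshold (limma adjusted p = 0.0669), and the pairwise call was lost without any 1 of 12 libraries. Over all genes 42.7% were called in the comparison with BxPC-3 and 38.9% in that with MiaPaCa-2. ERCC reads took 0.253% to 0.266% of the reads in PANC-1 with DMSO and 0.262% to 0.36% with THZ1, against 0.26% to 0.308% and 0.381% to 0.425% in BxPC-3 and 0.203% to 0.227% and 0.297% to 0.405% in MiaPaCa-2, and the part of this in the differences was not tested.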

How the results depend on the processing

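Library scaling moved these results most. With equal ERCC sums the direction turned in BxPC-3 for CCNH (-0.48), MNAT1 (-0.60), CDK13 (-0.88) and CCNK (-0.42), in MiaPaCa-2 for CDK7 (-1.25), CCNH (-0.93), MNAT1 (-0.68) and CCNK (-0.69), and in PANC-1 for CDK7 (-0.17), MNAT1 (-0.0058), CDK13 (-0.051) and CCNK (-0.23), all as log2 changes. With equal library sums it turned in BxPC-3 for CCNH (-0.038), MNAT1 (-0.17) and CDK13 (-0.43) and in MiaPaCa-2 for CDK7 (-0.62), CCNH (-0.30), MNAT1 (-0.062) and CCNK (-0.051). Smaller turns were those of CDK13 in BxPC-3 (-0.091 with TMM, -0.020 with edgeR), CDK7 in MiaPaCa-2 (-0.22 with TMM, -0.18 with DESeq2 factors, -0.19 with edgeR, -0.18 with DESeq2) and CDK12 in PANC-1 (0.046 with TMM, 0.089 with DESeq2 factors, 0.032 with edgeR, 0.050 with DESeq2). Sample weights turned CDK7 in PANC-1 (-0.16). Leaving out single libraries gave -0.018 to 0.048 for CDK7 in MiaPaCa-2 and, in PANC-1, -0.12 to 0.24 for CDK7, -0.16 to 0.046 for CDK12 and -0.051 to 0.40 for CDK13. The fall of CDK12 in BxPC-3 and MiaPaCa-2 and that of CDK7 in BxPC-3 kept their direction in every alternative run.

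The CCNK difference of PANC-1 minus BxPC-3 turned to 0.19 with equal ERCC sums and 0.021 with equal sums, and that of PANC-1 minus MiaPaCa-2 to 0.46 and 0.11. The CDK7 difference of PANC-1 minus MiaPaCa-2 turned to -0.18 with sample weights and ranged from -0.13 to 0.22 without single libraries. Levels with DMSO of MiaPaCa-2 minus BxPC-3 turned with equal ERCC sums for CDK13 (0.34) and CCNK (0.14), and for MNAT1 (-0.0051 with TMM, -0.022 with DESeq2 factors, -0.039 with edgeR, -0.030 with DESeq2). CDK12 of PANC-1 minus BxPC-3 turned with DESeq2 factors (-0.015). Sample weights turned CDK13 of PANC-1 against BxPC-3 (0.033) and MiaPaCa-2 (0.047). Single libraries left out gave -0.061 to 0.010, -0.39 to 0.061 and -0.36 to 0.094 for the 3 CDK13 differences. Of the ratios in PANC-1, without single libraries, CCNH over MNAT1 ranged from -0.049 to 0.33, CDK13 over CCNK from -0.12 to 0.36 and CDK7 over MNAT1 from -0.47 to 0.024.

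Of the 6 genes 2 were called in BxPC-3 with equal sums and 3 with TMM, and 3 to 6 without single libraries (3 without THZ1 replicate 3 of BxPC-3). Over all genes these fits called 8023 of 15368, 8009 of 15319 and 8187 to 11236 of 15354, against 9055 in the main test. In PANC-1 2 were called with sample weights, 1 with DESeq2 and 0 to 2 without single libraries. Over all genes these fits called 2716 of 15354, 544 of 17026 and 5 to 3334 of 15354, against 77 in the main test. List genes called in BxPC-3 numbered 20 with TMM against 31, where 52.3% and 59% of all genes were called. In PANC-1 the list genes called numbered 7 with equal ERCC sums, 10 with sample weights, 0 with DESeq2 factors, no trend or the compared groups alone, and 0 to 12 without single libraries, the most without DMSO replicate 3. Of all genes 18.4% were called there with equal ERCC sums, and 3334 of 15354 without DMSO replicate 3. Differences called for MiaPaCa-2 minus BxPC-3 were 4 with sample weights, 3 with the compared groups alone and 0 to 3 without single libraries. Over all genes these fits called 6997, 6129 and 1559 to 5426 of 15354, against 2118 in the main test. For PANC-1 minus BxPC-3 the differences called were 1 with equal medians, a pseudocount of 5 or the compared groups alone. They were 4 with sample weights and 1 to 4 without single libraries. Over all genes 5148 of 15354 were called with the compared groups alone, 9563 with sample weights and 5714 to 8617 without single libraries. The main test called 6561. For PANC-1 minus MiaPaCa-2 the differences called were 5 with equal ERCC sums and 4 with equal sums. They were 2 with a pseudocount of 5 or sample weights and 1 to 3 without single libraries. Over all genes 6720 of 15498 were called with equal ERCC sums and 5459 of 15368 with equal sums. Sample weights called 9042 of 15354 and fits without single libraries 5022 to 8108, against 5978 in the main test. The nearest genes by pattern kept 10 of 18 with TMM and 5 with equal ERCC sums. The cause of these changes was not tested.

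The labels do not say whether same-numbered samples are pairs. Same-numbered deviations correlated at -0.003 to 0.086 in BxPC-3, 0.017 to 0.14 in MiaPaCa-2 and -0.031 to 0.455 in PANC-1. Differently numbered ones correlated at -0.070 to 0.053, -0.13 to 0.065 and -0.51 to 0.50. Deviations from a mean of 3 libraries depend on each other, so these values cannot decide on pairing. With a replicate block, 0 list genes were called in PANC-1 and 1 response difference of PANC-1 minus BxPC-3. With a replicate block within each line, 0 list genes were called in PANC-1 and 2 differences of PANC-1 minus MiaPaCa-2. Over all genes the first block called 12 and 6567 of 15354 in these comparisons, and the second 7 and 6328. Depth limits the low values, with 66 to 166 reads for MNAT1, 98 to 358 for CCNH and 102 to 526 for CDK7 in PANC-1 with DMSO.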
